A study of Homo sapiens with 8 samples.

Results

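The enhancer regions of 9 genes were examined in 4 human medulloblastoma (MB) cell lines: the proneural basic helix-loop-helix (bHLH) genes *NEUROD1*, *NEUROD2*, *NEUROD4*, *NEUROG1* and *NEUROG2*, and the HES and HEY genes *HES1*, *HES5*, *HES6* and *HEY1*. These were 9 of the 28901 genes with a known strand. A region was assigned to a gene when it overlapped the gene body or came within 50 kb of the start site in GRCh38, which gave the 9 genes 59 of the 88550 deposited regions. MB002, D425 and HD-MB03 (written HDMB03 in the labels) are Group 3 MB (G3-MB) lines, and UW228 is labelled as SHH subtype. The labels name no treatment. MB002 and HD-MB03 were grown in Tumor Stem Media, which holds growth factors, and D425 and UW228 in DMEM with fetal bovine serum, so the medium differed within the G3-MB lines. H3K27Ac, a histone mark of active enhancers and promoters, was mapped by ChIP-seq with 1 ChIP and 1 input library per line and no replicates, and each line stands for its subgroup as a single culture.

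Proneural bHLH factors bind E-box sequences together with E proteins such as TCF3 and drive neural progenitors towards neuronal fate. Neurogenins act early and NEUROD factors act later, in differentiating neurons. HES1, HES5 and HEY1 are repressors that Notch signalling induces through RBPJ. They bind N-box and E-box sequences and keep progenitors undifferentiated by repressing proneural genes. HES6 is an exception in the family, since it counteracts HES1 and favours neuronal differentiation.

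The signal of a region was its H3K27Ac value minus its input value, floored at 0, in rpm/bp (reads per base pair, scaled to library size) times its length in bp. Regions were the peaks that ROSE had stitched together, ranked by signal within a line and called either super-enhancer (SE) or typical enhancer (TE). MB002 had 26072 regions, D425 26317, HD-MB03 15286 and UW228 20875. The numbers of SEs ranged from 302 in HD-MB03 to 753 in UW228. The ranks recomputed from the signal equalled the deposited ranks for all 59 regions. The methods state that peaks beside promoters were left out before stitching. Regions over start sites were nevertheless deposited, such as that of *NEUROD1* in HD-MB03, with 10658 of its 10908 bp in peaks, and how far the exclusion was applied is not known. A gene without a region was therefore not shown to lack H3K27Ac at its promoter. Of 8 Group 3 marker genes, 5 in HD-MB03, 7 in MB002, 6 in D425 and 4 in UW228 had a region. In all 3 G3-MB lines 4 of the 8 (*OTX2*, *CRX*, *NRL* and *IMPG2*) were at least 2-fold above UW228 and 1, *NPR3*, was below it, with a summed signal of 25870 in UW228 and no region in a G3-MB line. Of 9 SHH marker genes, 6, 5, 6 and 7 had a region in MB002, D425, HD-MB03 and UW228, and *ATOH1*, a defining gene of the SHH lineage, had none in any line, UW228 included. No SHH marker had an SE in UW228, whereas *PDLIM3*, *GLI1* and *PTCH1* had one in HD-MB03, and *GLI1* and *PTCH1*, targets of Hedgehog signalling, were at least 3.11 and 2.13 above UW228 on the log2(signal + 100) scale in all 3 G3-MB lines. In the other direction, *EYA1* had 60412 in UW228 against 5096 in MB002, 637 in D425 and no region in HD-MB03, and *SFRP1* had 7879 in UW228 and no region elsewhere. The table of UW228 carried an earlier creation date than the others and came from a ROSE folder of another name, so whether its stitching options were the same is not known, and this cannot be told apart from subgroup. With 3 lines against 1, the smallest p an exact permutation test can give is 0.25, so the comparisons are descriptions without a test, and a fold change describes these libraries only.

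At least 1 region was called for all 9 genes in MB002 (67% of all genes), for 8 of 9 in D425 (68.7% of all genes), for 8 of 9 in HD-MB03 (53.8%) and for 4 of 9 in UW228 (58.8%). SEs were assigned to 3 of the 9 genes in MB002 (*NEUROD1*, *NEUROD4* and *HEY1*), 2 in D425 (*HES1* and *HES6*) and 3 in HD-MB03 (*NEUROD1*, *NEUROG1* and *HES1*), and to none of them in UW228. The background share of SE-associated genes was 3.06% in HD-MB03, 3.16% in MB002, 4.2% in D425 and 5.25% in UW228. These counts depended on the setting, with 1 gene in MB002 and 1 in D425 when only the closest start site was used. Without input subtraction there were 2 in MB002 and 1 in HD-MB03. The background shares are those of the 50 kb window with the deposited calls. Shares of all genes under the other settings are not given, so these lower counts have no matching background. Altogether 6 of the 9 genes had an SE in at least 1 G3-MB line, against 8.1% of all genes, and none of the 9 had one in all 3. The median summed signal of the 9 genes was 12535 in HD-MB03, 11243 in MB002, 4512 in D425 and 0 in UW228, where no region counted as 0. The genes thus differed among the G3-MB lines as well as from UW228.

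**Figure D1:**
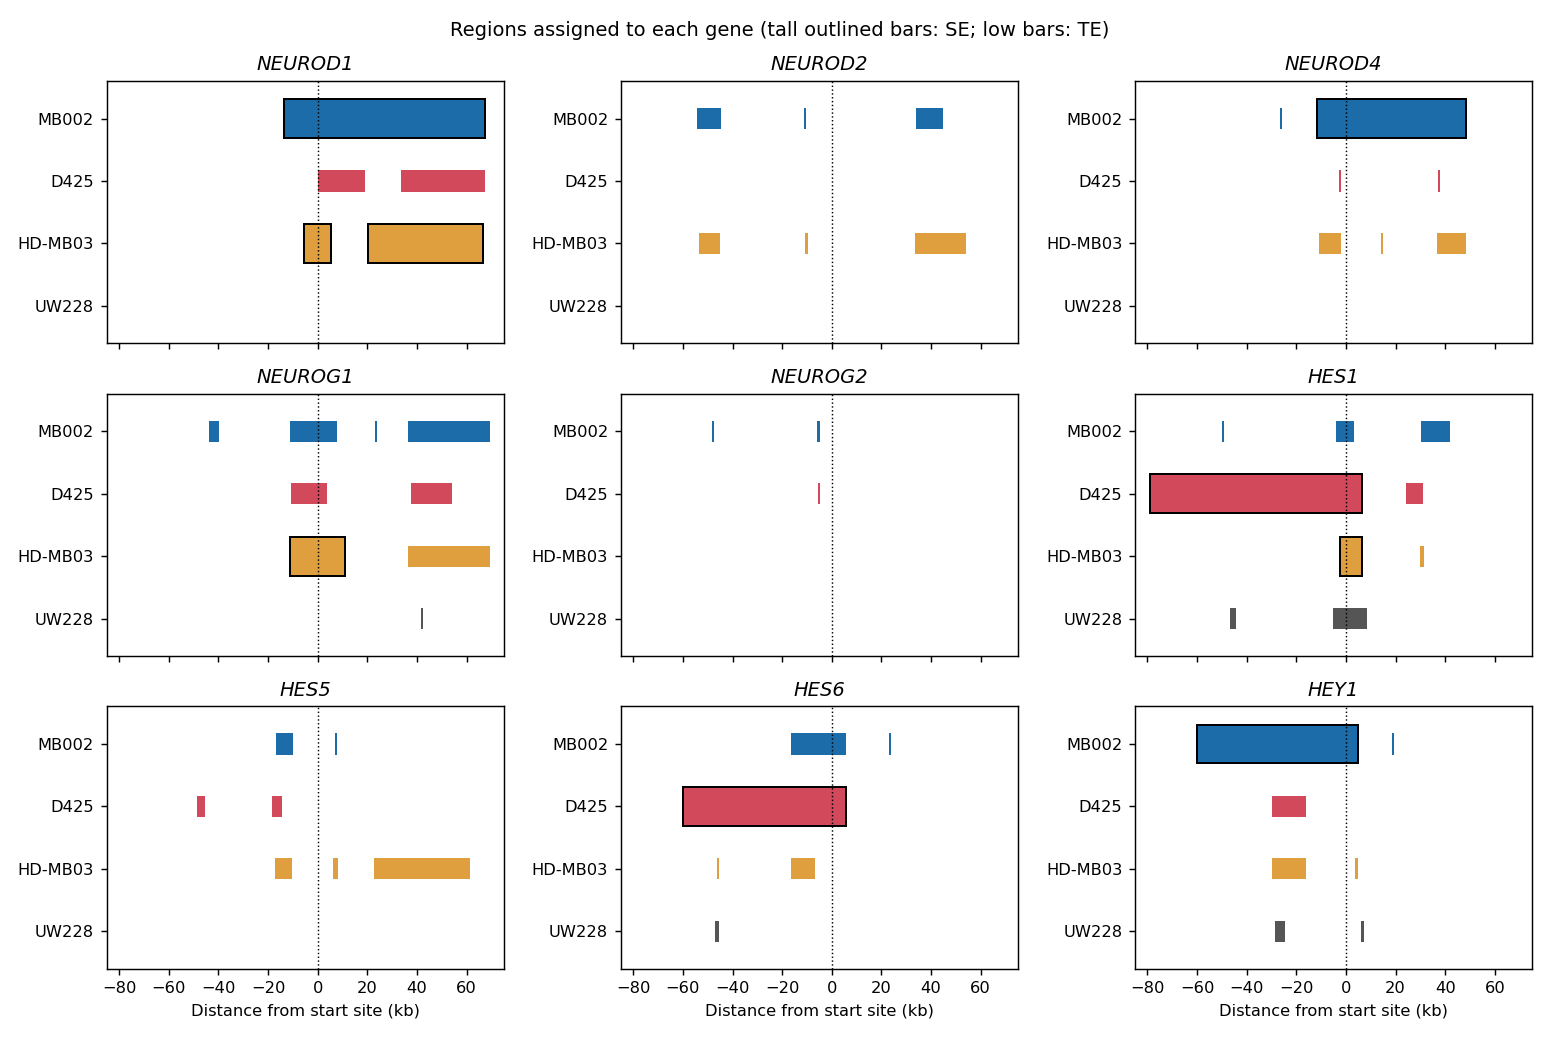
Regions assigned to each gene in each line, drawn as distance from the start site in kb along the direction of transcription (dotted line: start site; tall outlined bars: SE; low bars: TE). The 9 SE bars are spread over 6 genes, and UW228 has regions at *NEUROG1*, *HES1*, *HES6* and *HEY1* only.

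*NEUROD1*, which encodes a factor of differentiating neurons, lies at chr2:181668295-181680517 on the minus strand. Its summed signal was 92385 in HD-MB03, 39673 in MB002 and 36431 in D425, and no region was called in UW228. The regions covered 57146, 81282 and 53174 bp in the same order, at a mean of 1.62, 0.488 and 0.685 rpm/bp. The 3 G3-MB lines were within 2.54-fold of each other, with HD-MB03 the highest. In MB002 a single SE of rank 253 ran from -13.7 to +67.6 kb, made of 21 peaks over 81.3 kb, and took in *NEUROD1* and part of *CERKL*. HD-MB03 had SEs of rank 48 and 79. The first covered the start site from -5.33 to +5.58 kb with a signal of 51008 in 10.9 kb, and the second lay over *CERKL* from +20.3 to +66.6 kb with a signal of 41378. D425 had 2 regions that overlapped these, from +33.6 to +67.6 kb (rank 502, signal 24174) and from 32 bp to 19.3 kb downstream of the start site (rank 1429, signal 12257), both called TE. A gap of 14.4 kb separated them, wider than the distance over which ROSE joined peaks. Their combined signal of 36431 was above the lowest signal of an SE in D425, 26267, although neither was an SE alone, and it was within 1.09-fold of the signal of the SE in MB002. The input density of the D425 regions was 1.53 and 1.67 times the median of the line. Dividing the signal by it put the better of them at rank 897. The cutoff recomputed on those values called it an SE, although only 431 SEs had been deposited in D425. On the log2(signal + 100) scale the difference from UW228 was 9.85 in HD-MB03, 8.64 in MB002 and 8.51 in D425, with the absent region entered as 0. UW228 did have an SE farther upstream, of rank 498 and 31447 in signal, from -133.6 to -97.5 kb. When the window was widened to 100 kb this SE was assigned to *NEUROD1* and the difference from UW228 shrank to between 0.31 and 1.53. The closest start site of the MB002 SE was that of *CERKL*, and with the closest start site only *NEUROD1* had 512 in MB002 against 573 in UW228, a difference of -0.14, with 12257 in D425 and 51008 in HD-MB03.

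*NEUROD4*, a relative of *NEUROD1* at chr12:55019974-55030017 on the plus strand, had the widest spread in summed signal of the genes with a region in all 3 G3-MB lines. Its summed signal was 9227 in HD-MB03, 33309 in MB002 and 374 in D425, and UW228 had no region. MB002 was 89.0-fold above D425 and 3.61-fold above HD-MB03 in this sum. The length called differed likewise, with 21988 bp in HD-MB03, 60565 bp in MB002 and 697 bp in D425, whereas the mean signal was 0.420, 0.550 and 0.537 rpm/bp. The MB002 signal came almost wholly from an SE of rank 351 that spanned the gene from -11.8 to +48.6 kb with 14 peaks over 60.4 kb. Its signal of 33201 was close to the lowest SE signal of MB002, 32422, and without input subtraction, at rank 330, it was no longer an SE. HD-MB03 had 3 TEs over the same span. The strongest had rank 1958, from +36.8 to +48.6 kb, and 11789 of its 11800 bp lay inside the MB002 SE. D425 had 2 single-peak TEs of 503 and 194 bp. Both fell inside regions of MB002 and HD-MB03, so the 3 lines shared 697 bp, or 1.15% of the joined span. With so little signal in D425, the 2-fold excess over UW228 in all 3 lines was lost when 1000 in place of 100 was added before the logarithm.

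*NEUROD2*, a further neuronal differentiation factor, lies at chr17:39603768-39607920 on the minus strand in a gene-dense stretch. Its regions summed to a signal of 5728 in MB002 and 12535 in HD-MB03, and neither D425 nor UW228 had a region. HD-MB03 was 2.19-fold above MB002, over 30031 bp against 21348 bp. Both lines had 3 TEs at the same places, over *CDK12*, over *STARD3* and about 10 kb upstream of *NEUROD2*. The best rank was 6329 in MB002 and 1311 in HD-MB03, and no region reached the gene body. The region nearest to the gene had a mean signal of 0.971 rpm/bp in MB002 and 1.96 rpm/bp in HD-MB03. Its input density was 1.74 times the median of the line in MB002 and 0.332 of the median in HD-MB03. Its central stretch shared by both lines is given below (chr17:39618381-39618680, read on the minus strand as the gene is, GRCh38), because these 2 lines and not D425 carried it. Capitals mark E-boxes, spelled CANNTG, which reads the same on both strands. There were 3, among them CAGATG, an E-box of the kind that NEUROD and neurogenin factors bind.
NEUROD2 window: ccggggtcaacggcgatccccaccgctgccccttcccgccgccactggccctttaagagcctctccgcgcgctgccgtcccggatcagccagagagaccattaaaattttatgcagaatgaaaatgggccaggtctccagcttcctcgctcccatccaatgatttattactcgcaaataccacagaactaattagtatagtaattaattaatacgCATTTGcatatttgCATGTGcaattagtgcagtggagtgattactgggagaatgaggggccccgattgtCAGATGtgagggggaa
The central 300 bases of 80.4% of the 77247 regions of at least that length held an E-box, and 22.4% held CAGATG on either strand. A match of this kind is a description of the letters and shows no binding. The start site closest to this region was that of *PPP1R1B*, and 5 genes were assigned to it in each line, so the assignment to *NEUROD2* is one of several.

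*NEUROG1*, a neurogenin that acts in early neuronal commitment, lies at chr5:135534282-135535964 on the minus strand. The summed signal was 40362 in HD-MB03, 39370 in MB002, 20227 in D425 and 487 in UW228. The sums of the 3 G3-MB lines were 80.8 (MB002), 41.5 (D425) and 82.8 (HD-MB03) times that of UW228, which came from a single region of 487 bp against 31177 to 56283 bp called in the G3-MB lines. MB002 and HD-MB03 differed by 1.03-fold. In each G3-MB line a region covered the start site and its best rank was 208 in HD-MB03, 684 in MB002 and 843 in D425, and the deposited call was an SE in HD-MB03 only. Without input subtraction the HD-MB03 region, at rank 242, was no longer an SE. After division by relative input density the best MB002 rank moved from 684 to 893. The recomputed cutoff called that region an SE, although only 363 SEs had been deposited in MB002. These regions began between -11.1 and -10.7 kb and ended between +3.86 and +11.0 kb. A further TE lay from about +36 kb downstream towards *TIFAB* in all 3 lines. The UW228 region lay there, from +41.8 to +42.3 kb, with rank 15650 and a single peak. It was wholly inside the distal TE of the G3-MB lines, and its mean signal per base pair was 1.00 rpm/bp. Averaged over all bases of their regions, the gaps between stitched peaks included, the mean signal of the G3-MB lines was below that of UW228, with differences of -0.62 to -0.44 on the log2(rpm/bp + 0.01) scale. The start-site regions alone had 1.25 rpm/bp in HD-MB03, 1.18 in MB002 and 1.21 in D425, and UW228 had no region there.

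*NEUROG2*, the other neurogenin, lies at chr4:112513516-112516180 on the minus strand and had no region of high rank. Summed signal was 1057 in MB002 and 594 in D425, and HD-MB03 and UW228 had no region. The best ranks were 12750 and 14170, near the middle of the order of each line. Both lines had a single-peak TE about 5 kb upstream that overlapped the gene *NEUROG2-AS1*, and the 2 TEs shared 750 bp. The centre of that overlap is given as the only *NEUROG2* enhancer found in more than 1 line (chr4:112521377-112521676, minus strand, GRCh38). This centre lay in *NEUROG2-AS1* but outside its exons. It held 1 E-box, in capitals, and no CAGATG. It also held, not in capitals, 1 N-box (CACNAG, bound by HES factors) and 1 RBPJ core (TGGGAA), which were searched on both strands and found in 38.9% and 25.2% of the central 300 bases of regions.
NEUROG2 window: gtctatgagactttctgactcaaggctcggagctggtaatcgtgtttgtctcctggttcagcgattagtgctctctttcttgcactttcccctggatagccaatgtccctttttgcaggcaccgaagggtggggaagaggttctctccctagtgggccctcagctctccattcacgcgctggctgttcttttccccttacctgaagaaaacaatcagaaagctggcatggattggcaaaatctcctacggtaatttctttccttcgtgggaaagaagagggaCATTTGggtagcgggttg
Input density at this region was 0.588 of the median in MB002 and 1.43 times the median in D425.

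**Figure D2:**
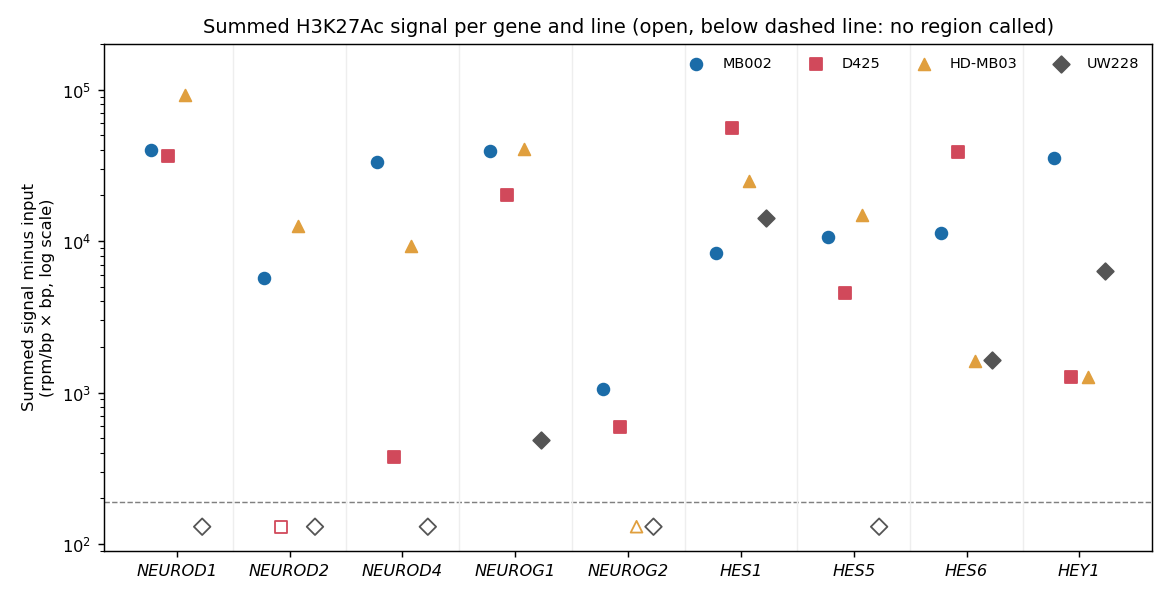
Summed signal minus input of all regions of a gene (rpm/bp × bp, log axis) in each of the 4 lines, with 1 library per point and open symbols below the dashed line where no region was called. At *NEUROD1*, *NEUROD4*, *NEUROG1* and *HES5* all 3 G3-MB lines lay above UW228, whereas they lay on both sides of UW228 at *HES1* and *HEY1*.

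*HES1*, the main effector of Notch signalling among these genes, lies at chr3:194136148-194138732 on the plus strand and was the only one of the 9 with a region over its start site in all 4 lines. The summed signal was 24996 in HD-MB03, 8355 in MB002, 55361 in D425 and 14185 in UW228. UW228 lay between MB002 and HD-MB03, so the groups overlapped. D425 was 6.63-fold above MB002 and 3.90-fold above UW228, with 92184 bp called against 19134 bp in MB002 and 16286 bp in UW228. This order rested on the D425 SE, whose closest start site was that of *LINC02028*. With regions assigned to the closest start site only, D425 was the lowest line, at 1779 against 8296 in MB002, 12214 in UW228 and 24996 in HD-MB03. The D425 region was an SE of rank 100 that reached from -78.9 to +6.49 kb, with 28 peaks over 85.4 kb, across *LINC02028*. HD-MB03 had an SE of rank 294 with a different shape. It was 8.86 kb long, had 2 peaks and reached a mean signal of 2.63 rpm/bp against 0.627 rpm/bp in D425. Its signal of 23320 was just above the lowest SE signal in HD-MB03, 23019. The call ended without input subtraction, at rank 385, and after division by relative input density, at rank 446. In UW228 and MB002 the start-site regions were TEs of rank 2150 and 3024. Of the 16286 bp called in UW228, 88.0% lay inside regions of the G3-MB lines.

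Since a region covered the *HES1* start site in every line, the 250 bases before it are given (chr3:194135898-194136147, plus strand, RefSeq on GRCh38). Capitals mark the N-box CACNAG and the RBPJ core TGGGAA, searched on both strands. There were 3 N-boxes and 2 RBPJ cores, and no E-box. An N-box and an E-box cannot be the same letters, and no motifs overlapped here.
HES1 upstream: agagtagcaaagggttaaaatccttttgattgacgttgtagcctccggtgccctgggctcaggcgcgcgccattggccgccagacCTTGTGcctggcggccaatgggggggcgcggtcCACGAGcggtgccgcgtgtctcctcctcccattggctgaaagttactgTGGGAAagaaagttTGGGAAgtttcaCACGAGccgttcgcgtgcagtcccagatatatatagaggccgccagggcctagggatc
Among the upstream 250 bases of 35116 RefSeq promoters, 32% held an N-box, 20.8% an RBPJ core and 61.8% an E-box. RefSeq sequences were matched for 8 of the 9 genes, all but *HEY1*. Besides *HES1*, *HES5* had 2 RBPJ cores, and no RBPJ core or N-box was found in the upstream windows of the other 6. *NEUROD1*, *NEUROG1* and *NEUROG2* had none of the motifs there, and *NEUROD2* had 3 E-boxes.

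A second *HES1* enhancer, about 31 kb downstream of the start site, was called in the 3 G3-MB lines and not in UW228. Its signal was 1676 in HD-MB03, 865 in MB002 and 1779 in D425, with ranks of 5333, 13205 and 8316 in the same order. The 3 regions shared 754 bp from +30.4 to +31.2 kb, whose centre is given as the part of *HES1* that separated the G3-MB lines from UW228 (chr3:194166775-194167074, plus strand, GRCh38). It held 1 E-box, in capitals, and that was CAGATG, and 1 N-box, not in capitals.
HES1 downstream: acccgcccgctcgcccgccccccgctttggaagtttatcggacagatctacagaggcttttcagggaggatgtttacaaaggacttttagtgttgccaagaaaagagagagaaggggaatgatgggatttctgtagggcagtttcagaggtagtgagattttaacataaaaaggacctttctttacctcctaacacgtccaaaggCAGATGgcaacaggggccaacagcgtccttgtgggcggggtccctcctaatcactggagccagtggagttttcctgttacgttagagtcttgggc
UW228 in turn had a TE from -46.9 to -44.3 kb with a signal of 1970, a stretch that in D425 lay inside the SE.

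*HES5*, a Notch-induced repressor of neural progenitors, lies at chr1:2528745-2530263 on the minus strand. Its regions summed to 14885 in HD-MB03, 10654 in MB002 and 4512 in D425, and UW228 had no region. The G3-MB lines were within 3.30-fold of each other, over 47257, 7263 and 7066 bp at a mean of 0.315, 1.47 and 0.639 rpm/bp. No region reached the gene body in any line, and the nearest regions lay upstream near *TNFRSF14* or downstream over *PANK4*. The 3 lines shared 2398 bp upstream, from -16.7 to -14.3 kb, with ranks of 2165 in HD-MB03, 2062 in MB002 and 5582 in D425. Each of these regions was assigned to 6 genes and had *TNFRSF14* as its closest start site. When regions were assigned to the closest start site only, *HES5* had no region in any line and was not above UW228. A second D425 region, from -48.5 to -45.5 kb, had the lowest input density of the 59, 0.255 of the median of the line. HD-MB03 alone had a TE of 38.4 kb over *PLCH2* within 50 kb of the start site, although regions over *PLCH2* lay beyond that distance in MB002, with a signal of 20538, and in D425, with a signal of 531.

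*HES6*, which acts against HES1, lies at chr2:238238267-238240038 on the minus strand. The summed signal was 1617 in HD-MB03, 11243 in MB002, 38770 in D425 and 1639 in UW228. HD-MB03 and UW228 were within 1.01-fold of each other, and D425 was 24.0-fold above HD-MB03 and 3.45-fold above MB002. The regions covered 9679, 22455, 65612 and 1746 bp in the order of those values, at a mean of 0.167, 0.501, 0.591 and 0.939 rpm/bp. In D425 an SE of rank 193 ran from -60.0 to +5.58 kb, with 15 peaks over 65.6 kb, across *PER2*. MB002 had a TE of 22.2 kb over the start site, of rank 1910. HD-MB03 had a TE that ended 6.92 kb upstream, and a peak of 270 bp in *PER2*. The single region of UW228, 1746 bp in *PER2* at about -46 kb, lay wholly inside the SE of D425 and over the small peak of HD-MB03.

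*HEY1*, a Notch effector related to the HES genes, lies at chr8:79764010-79767767 on the minus strand. Within the 50 kb window it was highest in MB002, the line where *HES1* was lowest. The summed signal was 1270 in HD-MB03, 35458 in MB002, 1258 in D425 and 6322 in UW228. D425 and HD-MB03 differed by 1.01-fold, and UW228 was 5.03-fold above D425 and 4.98-fold above HD-MB03, whereas MB002 was 5.61-fold above UW228, with 65377 bp called against 4670 bp. The closest start site of the MB002 SE was that of *LINC01607*, and with the closest start site only *HEY1* had 220 in MB002, 582 in HD-MB03, 706 in UW228 and no region in D425, so that MB002 was no longer above UW228. The MB002 region was an SE of rank 313, from -60.0 to +4.93 kb with 11 peaks over 65.0 kb, across *LINC01607*. All 4 lines had a region in *LINC01607* between -30.0 and -15.9 kb or around it, and the whole 3840 bp of UW228 there was covered in the 3 G3-MB lines too. Its mean signal was 1.46 rpm/bp in UW228, 0.0896 rpm/bp in D425, 0.0498 rpm/bp in HD-MB03 and 0.542 rpm/bp across the SE in MB002. The regions of D425 and HD-MB03 were 14.0 and 13.8 kb long, but only 1407 and 1811 bp of them lay in peaks.

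**Figure D3:**
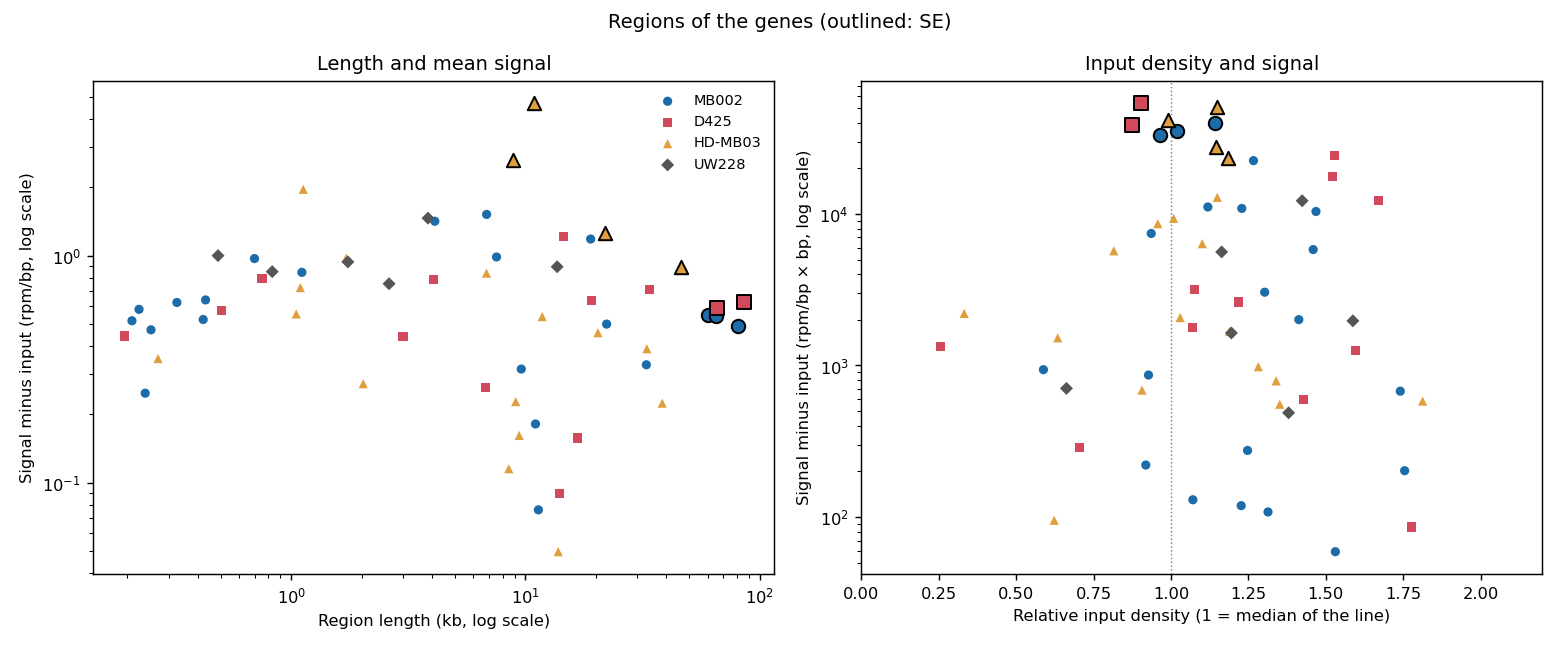
Each point is 1 of the 59 regions, coloured by line, with SEs outlined. Left: mean signal minus input (rpm/bp, log axis) against length (kb, log axis), where the SEs of MB002 and D425 are 60.4 to 85.4 kb long at 0.488 to 0.627 rpm/bp and those of HD-MB03 are 8.86 to 46.2 kb long at 0.895 to 4.68 rpm/bp. Right: signal minus input (rpm/bp × bp, log axis) against input density relative to the median of the line, which stays between 0.255 and 1.81.

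The SEs of these genes took different forms in the lines. In MB002 and D425 they were long blocks of 11 to 28 peaks with mean signals of 0.488 to 0.627 rpm/bp. In HD-MB03 they were shorter, 8.86 to 46.2 kb with 2 to 11 peaks, and denser, 0.895 to 4.68 rpm/bp, and the densest of the 59 regions was the start-site SE of *NEUROD1* in HD-MB03. The same values over all SEs of a line are not given, so whether this contrast is particular to these genes was not tested. Each SE covered the start site of its gene except the distal *NEUROD1* SE of HD-MB03. The start site lay inside a region for 6 of the 9 genes in MB002 (7.53% of all genes), 3 in D425 (7.07%), 3 in HD-MB03 (5.82%) and 1, *HES1*, in UW228 (6.07%). Input density of the 59 regions ranged from 0.255 to 1.81 of the median of the line, with a median of 1.16. The 9 SEs had values of 0.873 to 1.18.

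Relative to UW228, *NEUROD1*, *NEUROD4*, *NEUROG1* and *HES5* were at least 2-fold higher in all 3 G3-MB lines on the log2(signal + 100) scale, 4 of the 9 genes against 16% of all genes. None was at least 2-fold lower in all 3, against 18.5% of all genes. The median region signal was higher in UW228, 1690, than in MB002, 890, D425, 717, or HD-MB03, 846. With each line divided by that median the same 4 genes and no others passed, beside 19.8% of all genes above and 12.9% below. *NEUROD1*, *NEUROD4* and *HES5* had a region in all 3 G3-MB lines and none in UW228, 3 of 9 against 10.5% of all genes. Counting a region in at least 1 G3-MB line and none in UW228 gave 5 of 9, against 27.2%. A region in all 4 lines was found for 4 of 9, against 32.3%. Of the 4 that passed 2-fold, 3 were proneural genes and 1 was a HES gene. At *HES1*, *HES6* and *HEY1* the lowest G3-MB line was at or below UW228 within the 50 kb window, with differences of -0.76, -0.02 and -2.24, which became 0.16, 0.94 and -1.28 when each line was divided by its median. For *HES6* the order depended on the setting. With 25 kb all 3 G3-MB lines were 4.02 to 8.60 above UW228, which then had no region. With 100 kb the lowest difference was -1.60. With mean signal per base pair all 3 lines were below UW228, at -2.42 to -0.66. *NEUROD2* and *NEUROG2* lacked a region in 1 G3-MB line each, D425 and HD-MB03, and in UW228. The largest overlap among the G3-MB lines was at *NEUROG1*, where 52.3% of the joined span was called in all 3 lines, and at *NEUROD1*, with 47.3%. It was 21.1% at *HEY1*, 14.3% at *HES6*, 6.49% at *HES1*, 4.62% at *HES5* and 1.15% at *NEUROD4*, and *NEUROD2* and *NEUROG2* shared no base in all 3.

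Other bHLH genes and genes of the Notch pathway were examined as lists. Of 31 other bHLH genes, 17 in HD-MB03, 22 in MB002, 23 in D425 and 15 in UW228 had a region, and 1, 1, 3 and 5 had an SE. At least 2-fold above UW228 in all 3 G3-MB lines were 7 of the 31 genes, and 4 were at least 2-fold below it, beside a background of 16% and 18.5%. The median summed signal of these genes was 762 in HD-MB03, 1187 in MB002, 937 in D425 and 0 in UW228, against 179, 927, 989 and 524 over all genes. *NHLH1*, a bHLH factor of newborn neurons, had 39102 in MB002 with an SE of rank 289, 10894 in D425 and 19422 in HD-MB03, and no region in UW228. *ATOH8* had 27198 in MB002, 123123 in D425, where its SE had rank 14, 16123 in HD-MB03 and 282 in UW228. *TCF3*, which encodes an E protein partner of proneural factors, had 5876 in HD-MB03, 7159 in MB002 and 6308 in D425, and no region in UW228. *HES3* and *HEYL* also stood above UW228, by at least 5.66 and 5.05 on the log2(signal + 100) scale. In the other direction, *HEY2* had an SE in UW228, with 25874 at rank 692, against 216 in MB002 and 254 in D425 and no region in HD-MB03. *MSC* had 25740 in UW228, also an SE, against 979 in MB002 and 762 in HD-MB03 and no region in D425. The E protein genes *TCF4* and *TCF12* were higher in UW228, at 35786 and 40956, than in any G3-MB line, where the highest values were 16764 for *TCF4* and 20303 for *TCF12*. *BHLHE40* was higher in UW228, at 52673, but stayed within 2-fold of the nearest G3-MB line, D425, at 27997.

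*ATOH1*, the proneural gene of granule neuron precursors, had no region in any line. The ID genes encode proteins without a DNA-binding region that sequester E proteins. *ID1* had 5854 in MB002, 111826 in D425 with an SE of rank 77, 32310 in HD-MB03 and 18664 in UW228. *ID3* had 35834 in HD-MB03, 21555 in MB002, 53026 in D425 and 25157 in UW228, with an SE in each line except MB002. Neither separated UW228 from the G3-MB lines.

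Of 24 Notch pathway genes, 19 in HD-MB03, 20 in MB002, 20 in D425 and 20 in UW228 had a region, and 3, 2, 3 and 1 had an SE. Of these, 7 were at least 2-fold above UW228 in all 3 G3-MB lines and 5 were at least 2-fold below it, beside the same background of 16% and 18.5%. The Notch genes are longer, with a median of 38806 bp against 16953 bp over all genes. *NOTCH1* had 15064 in HD-MB03, 1894 in MB002, 82967 in D425 and 3190 in UW228, and its SE in D425 had rank 59. *JAG1*, which encodes a Notch ligand, had 12114, 5654, 69620 and 7229 in the same order, and its SE in D425 had rank 48. Both thus had their highest value in D425 and their lowest in MB002, as *HES1* did with the 50 kb window. *NOTCH2* had 7636 in UW228 and 190 in MB002, and no region in D425 or HD-MB03. *NOTCH3* had 11333 in UW228 and at most 757 in a G3-MB line. The ligand gene *DLL3* had 11064 in HD-MB03, 1463 in MB002 and 14407 in D425, *DLL1* had 1900, 5962 and 108, and neither had a region in UW228. *NRARP*, a Notch target, had 11261, 1106 and 19080 and no region in UW228. *LFNG* and *RFNG*, which encode glycosyltransferases that modify Notch receptors, had SEs in HD-MB03 of rank 63 and 192. The Notch inhibitor gene *NUMBL* was at least 1.70 above UW228 on the log2(signal + 100) scale. *DLK1*, *DLL4* and *MAML1* were lower than in UW228 in all 3 G3-MB lines, with differences of -1.27 or below on that scale. *DLK1* had only 289 in UW228, from a region of rank 17432, and no region in a G3-MB line, so its difference depended on the 100 added. *RBPJ*, which encodes the DNA-binding factor of the pathway, had 461 in HD-MB03, 1691 in MB002, 8162 in D425 and 2344 in UW228, with TEs only.

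The 9 genes are short, with a median length of 2665 bp against 16953 bp over all genes, so overlap with the gene body added little to their assignment. Only 29 of the 59 regions had the start site of one of the 9 genes as their closest, 10 of 19 in HD-MB03, 10 of 21 in MB002, 7 of 13 in D425 and 2 of 6 in UW228. Single peaks made up 22 of the 59 regions.

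For the 7 genes with a region in at least 3 lines, the protein-coding genes with the nearest pattern were found by the Euclidean distance of log2(summed signal + 100) over the 4 lines, leaving out genes that shared a region with them. Nearest to *NEUROG1* was *IMPG2*, one of the Group 3 markers, at a distance of 0.51, with 33987 in HD-MB03, 39334 in MB002, 18699 in D425 and 694 in UW228. *DVL1* and *ACAP3*, which had the same value in D425, followed at 0.52. For *NEUROD1* they were *BTG2* at 0.91, *PCBP3* at 1.03 and *CCNF* at 1.12, for *NEUROD4* *AOC1* at 0.96, *SNX20* at 1.16 and *GALNT18* at 1.20. *HES1* was nearest to *MAFF* at 0.63, then *TRIR* and *HAUS4*. *HES5* was nearest to *ZFYVE26* at 0.36, then to *PTH2* and *GFY*, which had identical values. *HES6* was nearest to *C15orf39* at 0.48, then *GLG1* and *AP4S1*, and *HEY1* to *CDC73* at 0.94, then *COL25A1* and *FXYD4*. With 4 lines and this many genes the distance is a description only.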

How the data were processed

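The 4 lines had 1 H3K27Ac ChIP-seq library and 1 input library each. Per the labels and methods, the authors aligned reads to GRCh38 (hg38) with Bowtie2 2.3.0, converted them with SAMtools 1.9, used sambamba to remove reads mapping to several places and duplicates, called peaks over input with MACS2 2.2.6 and stitched and ranked peaks with ROSE. The methods also state an exclusion of peaks beside promoters, yet some deposited regions cover start sites. The deposited signal is in rpm/bp multiplied by region length, with the input not subtracted. The deposited score is the ROSE rank, where 1 is the highest. Library depth is unknown, so no counting interval was given.

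Input was subtracted here and negative values were set to 0. Of 29989 curated RefSeq genes, the 28901 whose strand could be read from the RefSeq promoter table or, failing that, GENCODE 44 were used. Relative input density was input per base pair over the median of the line. Folds between lines are ratios of summed signal. The 2-fold calls against UW228 used log2(summed signal + 100), with no region as 0. The code was tested on simulated regions. Python 3.11.15, numpy 2.4.6, pandas 2.3.3 and matplotlib 3.10.9 were used. All 35116 promoter sequences equalled the genome used.

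The 9 genes and the lists were chosen with earlier results of these data known. All 9 genes were described. Of the lists, a fixed set (*ATOH1*, *ID1*, *ID3*, *NOTCH1*, *NOTCH2*, *DLL1*, *JAG1*, *RBPJ*) and up to 5 genes per direction with the largest difference in all 3 G3-MB lines were named. A gene that this rule names and 1 sequence are not reported here. Alternatives were other windows, the closest start site, no input subtraction, division by input density or by the median signal, strongest region, mean signal per base pair, a 4-fold threshold, the recomputed cutoff, the top 5000 regions, protein-coding genes, each G3-MB line left out, and, chosen after seeing the data, pseudocounts of 1000 and 10.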

Additional observations from a re-analysis of the deposited data

How the results depend on the processing

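The numbers of genes with a region, with an SE or past 2-fold were within 1.5 times the reported value in 63 of 72 recalculations. Those against protein-coding genes could not change a count, and some others compared 0 with 0. A count within that range could also hold other genes. With a window of 25 kb, 2 genes had a region in UW228 and *HES6* joined the genes above it, making 5, against 12.8% of all genes. With 100 kb 1 had an SE in UW228 (*NEUROD1*, which then fell short of 2-fold, while *NEUROD2* passed it with a lowest difference of 5.98). The number above UW228 was then 4, against 17.4% of all genes. With the closest start site only, 1 gene had an SE in MB002 and 1 in D425, since long SEs went to neighbours. The lowest difference of *NEUROD1* turned to -0.14. *HES5* had no region left and dropped out of the genes above UW228, while *HES6* entered. The number above UW228 was 3, against 8.83% of all genes. *HES1* in D425 and *HEY1* in MB002 then fell from above UW228 to below it. Without input subtraction HD-MB03 kept 1 gene with an SE, with *NEUROG1* and *HES1* lost, and *NEUROD4* in MB002 lost its call. The cause was not tested. Among the top 5000 regions, 4 genes had a region in D425 and 2 in UW228. With mean signal per base pair 1 gene (*HEY1*) was lower in all 3 lines, and *NEUROG1* turned to -0.62 and -0.44. Leaving out 1 G3-MB line at a time gave 4 to 6 genes above UW228 and 0 to 1 below: *HEY1* was below without MB002, *NEUROD2* joined those above without D425, and *NEUROG2* and *HES6* without HD-MB03. The shares of all genes were then 18.9%, 19.9% and 24.1% above and 23.5%, 24.8% and 21.1% below, without MB002, D425 and HD-MB03 in turn. A pseudocount of 1000 gave 3 above, without *NEUROD4*, against 9.98% of all genes. Division by relative input density moved the best rank of *NEUROG1* in MB002 from 684 to 893 and that of *NEUROD1* in D425 from 502 to 897. The recomputed cutoff nevertheless called both SEs, where 363 and 431 SEs had been deposited, so it reached further down the order in those lines. It ended the call of *HES1* in HD-MB03, at rank 446. No paired analysis was possible because each line had 1 library of each kind and no test was run. UW228 is 1 line, and depth is unknown.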
